A study of Mus musculus with 17 samples.

Results

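The genes described here encode collagen chains, the polypeptides that wind around each other in bundles to make collagen molecules. They were chosen by symbol alone: every row of the count tables named Col, a number, a and a number, which gave 44 of 53090 rows. Their RNA levels were compared over 4 groups of mouse RNA-seq libraries, 12 in all, from a study of supratentorial ependymoma, a brain tumour, and of YAP fusion proteins within it. The other 5 of its 17 samples mapped YAP or the histone mark H3K27ac along the genome and were not analysed here. YMdIDR (3 libraries) stands for cells or tissue that overexpressed a construct named YAP-MΔIDR. YAP-M (4 libraries) stands for brain tumours that followed electroporation of a construct named YAP-M into the brain in utero. NSC-YAP (2 libraries) stands for cultured neural progenitor cells, derived from embryonic stem cells, that overexpressed YAP. SVZ (3 libraries) carries the treatment label wild-type. The labels disagree on the material of a pair of groups: YMdIDR is labelled both as brain tumour tissue and as ES-derived neural progenitor cells, and SVZ both as wild-type and as brain tumour. Strain, age, the promoter that drives each construct and the number of animals or cultures behind each group are not given in the labels. The labels do not say whether replicates were separate animals or cultures, so p-values measure only the spread between these libraries, which may be technical in part. The Y-linked gene Ddx3y differed between libraries within YMdIDR, YAP-M and SVZ (values below), so the spread in those groups was not technical alone. For NSC-YAP this is not settled.

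Collagens are the main structural proteins of the extracellular matrix. Fibrillar collagens assemble into fibrils that bear tension. Basement membrane collagen, type IV, forms the sheet under epithelia and around blood vessels. FACIT collagens sit on the surface of fibrils, and beaded collagen, type VI, forms microfilaments around cells. Network collagens build hexagonal lattices, multiplexins are basement membrane proteoglycans, and transmembrane collagens are held in the cell membrane. In normal brain, matrix of this kind is mostly confined to the meninges and the vessel walls. YAP, made from Yap1, turns on transcription without binding DNA itself and is recruited there by TEAD factors.

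By class, the 44 genes were 11 fibrillar, 6 basement membrane, 6 beaded, 9 FACIT, 3 network, 2 multiplexin, 4 transmembrane and 3 other chains. The 6 type IV genes lie in head-to-head pairs, each pair read outward from a common stretch (coordinates of the deposited tables, build mm10). Col4a1 starts at chr8:11312826 on the minus strand and Col4a2 at chr8:11312805 on the plus strand, so that their annotated ends share 22 bases. Col4a4 and Col4a3 on chromosome 1 are 71 bases apart, and Col4a6 and Col4a5 on chromosome X are 1308 bases apart. The stretch held by both the Col4a1 and the Col4a2 promoter windows in RefSeq (GRCm38.p6, chr8:11312777-11312854, plus strand, 78 bases, 73.1% G or C) is printed because the ratio of this pair is given further on. Capitals mark the 22 shared bases.
Col4a1 and Col4a2: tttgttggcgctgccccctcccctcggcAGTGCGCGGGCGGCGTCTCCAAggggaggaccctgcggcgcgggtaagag

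RefSeq promoter windows, 250 bases before to 50 after the start site, were at hand for 35 of the 44 genes. The letters GGAATG, the core that TEAD factors are known to prefer, were searched on both strands (CATTCC on the other strand). They stood in the windows of 5 of the 35 collagen genes (14.3%), against 16.6% of all 27025 genes with a window, so the collagen share was near the background. The 5 stretches follow, 30 bases each on the strand of the gene, with the letters in capitals. A match is a description of the letters and not a binding site.
Col3a1: tatcacaaagcaCATTCCtatgtgtttctg
Col20a1: tgctggtccatgGGAATGgatgcagaacaa
Col6a2: cctcccccagctCATTCCccagcttcatct
Col18a1: tcaggctgggttCATTCCcttctgccagag
Col4a6: cccgtccccctcCATTCCttcctccctggg
In the Col18a1 window a second match, GGAATG, lies outside the stretch printed. That window (chr10:77113656-77113955) lies inside the gene, and the window at the annotated start of Col18a1 (chr10:77166481-77166780) held no match. Nor did another window of Col6a2 (chr10:76623581-76623880). The first match began 168 bases before the start site of its window in Col3a1, 98 in Col20a1, 115 in Col6a2, 104 in Col18a1 and 5 in Col4a6.

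Libraries held 20784130 to 25463303 counts. Levels are given in CPM, counts put on a common library size with TMM factors, a method that takes most genes as equal between libraries. Yap1 checked the labels: its level was 184, 839 and 1276 CPM in YMdIDR, 92.8 to 105 CPM in YAP-M, 242 and 239 CPM in NSC-YAP, and 21.5 to 27.9 CPM in SVZ. Neural progenitor markers summed to 544 to 573 CPM in YMdIDR, 195 to 359.8 CPM in YAP-M, 1881 to 1947 CPM in NSC-YAP, and 253 to 281 CPM in SVZ. Nes alone averaged 398 CPM in YMdIDR and 20.1 CPM in SVZ. In both YMdIDR and YAP-M over SVZ, Nes and Pax6 were called higher and Sox2 and Sox1 lower. Sox2 averaged 9.96 CPM in YMdIDR and 84.5 CPM in SVZ. Oligodendrocyte markers summed to 24714 to 29286 CPM in SVZ and to at most 2880.4 CPM in any other library. Astrocyte markers reached 538 to 1672, 1937 to 2886, 4092 to 4119 and 4149.9 to 5600.1 CPM in the same 4 groups, and ependymal markers 6.86 to 22.6, 12.5 to 27.7, 40.2 to 41.7 and 46.1 to 61.1 CPM, with Tmem212 at 0 in NSC-YAP. The NSC-YAP sums were mostly 1 gene each, Slc1a3 (mean 3729.8 CPM) and Foxj1 (37.5 CPM), and in NSC-YAP over SVZ 5 of 6 astrocyte and 5 of 6 ependymal markers were called lower. Some libraries stood apart. Replicate 3 of YAP-M had the lowest level of its group in 28 of 43 collagen genes, and replicate 3 of YMdIDR in 24 of 43. Replicate 1 was the highest of YMdIDR in 24, the lowest of SVZ in 24 and the lower of NSC-YAP in 30. Counts of YMdIDR replicate 1 also lay further from those of replicates 2 and 3 (chi-square per gene 64.1 and 84.2) than replicates 2 and 3 did from each other (31.8). Replicate 3 of YMdIDR and of YAP-M carried the Y-linked gene Ddx3y (70.0 CPM in YMdIDR and 81.9 CPM in YAP-M). The other libraries of those groups had at most 0.135 CPM. Ddx3y was at 48.1 and 50.4 CPM in NSC-YAP and at 63.4, 4.55 and 72.2 CPM in SVZ. Sex was thus not balanced between the groups compared, and its part in the collagen values was not tested. Calls that changed without replicate 3 of YAP-M or of YMdIDR are given beside the result, as are some that changed without another library.

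Summed over all 44 genes, collagen RNA reached 6818, 6940 and 5937 CPM in YMdIDR and 7682, 7512, 4223 and 7642 CPM in YAP-M. It reached 688 and 714 CPM in NSC-YAP and 615, 683 and 704 CPM in SVZ. Neither YMdIDR nor YAP-M overlapped NSC-YAP or SVZ, and the lowest YAP-M library, replicate 3, still stood far above both. As a share of all counts this was 0.601 to 0.705% in YMdIDR, 0.476 to 0.849% in YAP-M, 0.0663 to 0.0693% in the NSC-YAP libraries and 0.0548 to 0.0619% in SVZ. In bulk RNA, more cells of a collagen-making type and more collagen RNA per cell cannot be told apart.

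**Figure D1:**
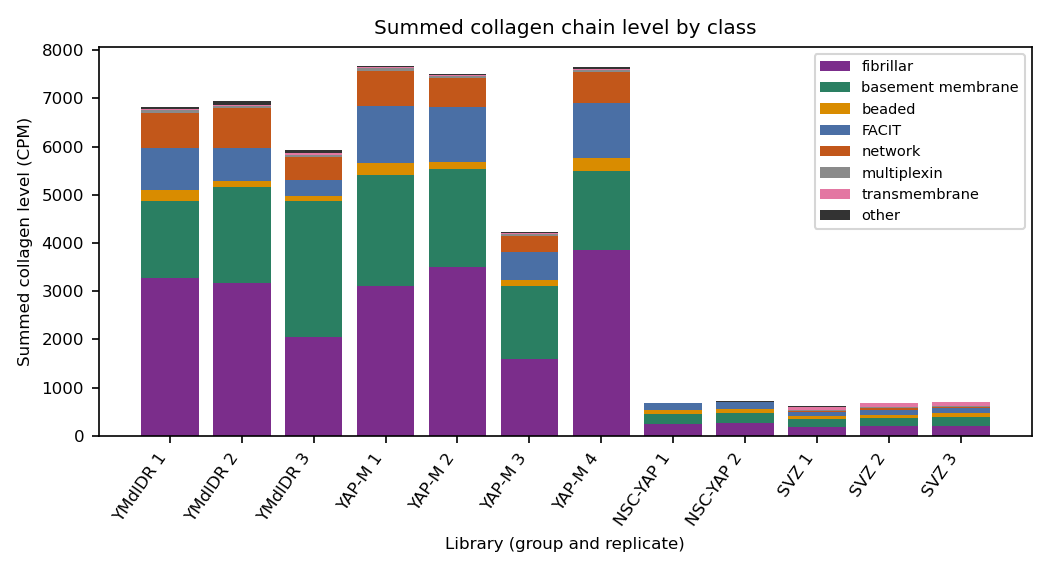
Summed collagen level of each library in CPM (bars, 1 per library; colours split the sum by collagen class; groups from left to right are YMdIDR, YAP-M, NSC-YAP and SVZ). The 7 YMdIDR and YAP-M libraries hold 4223 to 7682 CPM, and the NSC-YAP and SVZ libraries 615 to 714 CPM.

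The makeup of that sum also differed. Fibrillar chains gave 34.4 to 47.9% of collagen counts in YMdIDR, 37.6 to 50.3% in YAP-M, 37.0% in both NSC-YAP libraries and 28.1 to 29.9% in SVZ. Basement membrane chains gave 23.4 to 47.7%, 21.7 to 35.9%, 28.4 to 29.4% and 24.7 to 27.5% in the same 4 groups. Their highest share, 47.7%, was that of YMdIDR replicate 3, which had the lowest fibrillar share of its group. Transmembrane chains gave 11.2 to 12.6% of the SVZ collagen counts and under 0.5% in every other group. FACIT chains took 5.51 to 12.8% in YMdIDR, 13.8 to 15.3% in YAP-M, 21.4 and 22.0% in NSC-YAP and 15.2 to 15.7% in SVZ. Beaded chains took 1.64 to 3.53% in YMdIDR, 2.15 to 3.39% in YAP-M, 10.7 and 11.1% in NSC-YAP and 8.87 to 9.98% in SVZ. Network chains took 8.13 to 11.9% in YMdIDR, 7.83 to 9.27% in YAP-M, 0.101 and 0.04% in NSC-YAP and 2.16 to 4.59% in SVZ. Levels per base were taken as RPKM, the CPM divided by the gene length listed in the deposited tables, in kilobases. By this measure Col5a2 led in YMdIDR (145 ± 22.6, SD, n = 3) and in YAP-M (129 ± 24.7, n = 4), followed in both by Col4a1, Col8a1 and Col4a2. Col4a5 (15.5 ± 0.314, n = 2) and Col11a1 (14.6 ± 0.324) led in NSC-YAP. Col9a3 (14.7 ± 1.42, n = 3) and Col4a1 (12.2 ± 1.13) led in SVZ. In YMdIDR and YAP-M the first pair in this order differed by less than the SD of either gene, and in NSC-YAP and SVZ by more. A mean of at least 10 CPM was reached by 26 of the 44 genes in YMdIDR, 28 in YAP-M, 11 in NSC-YAP and 14 in SVZ.

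**Figure D2:**
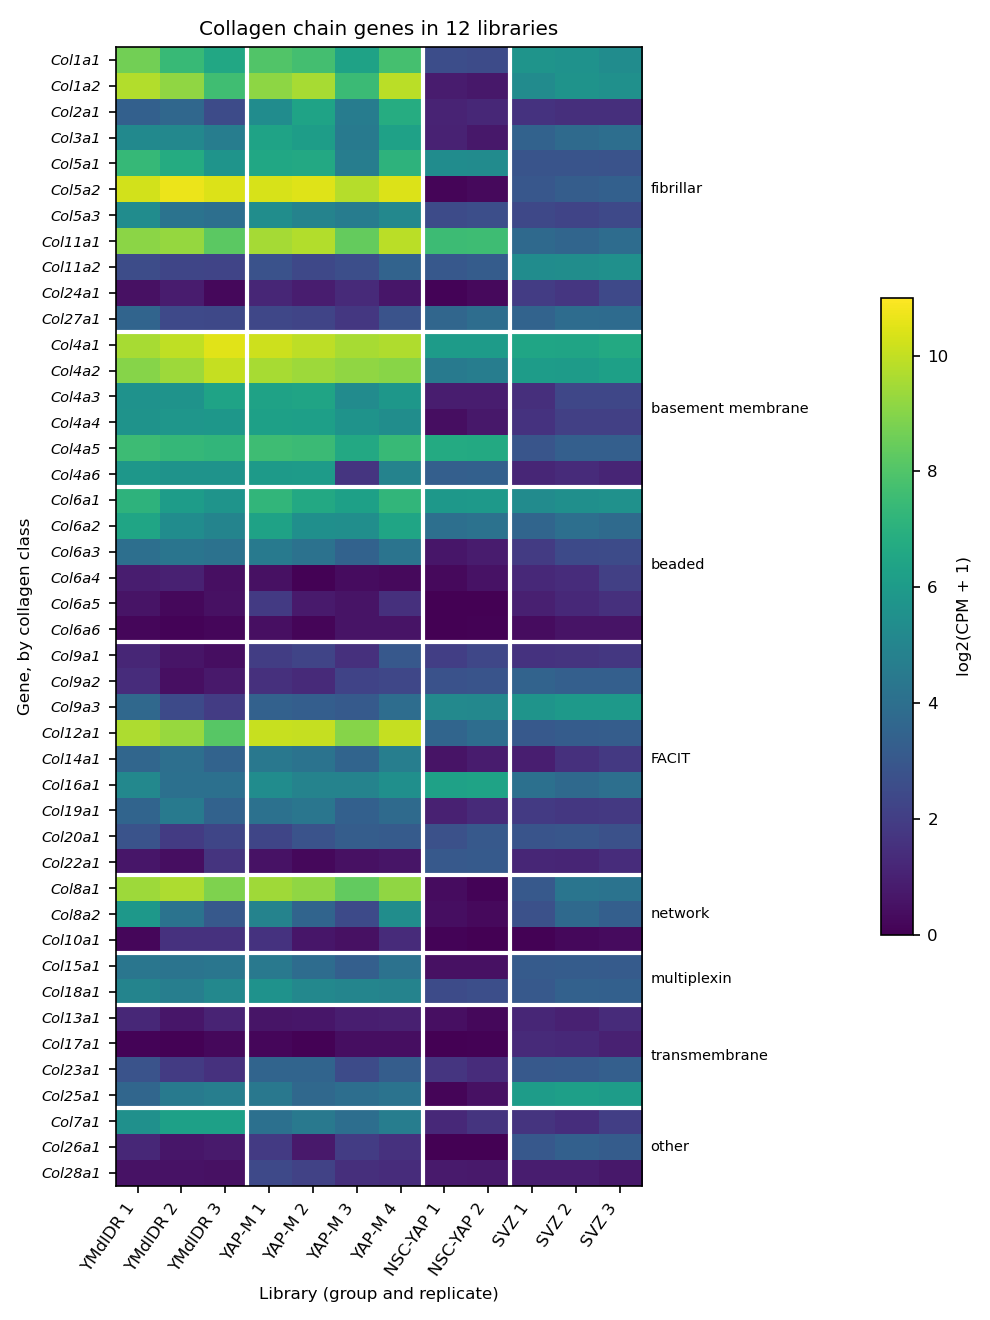
Level of all 44 collagen chain genes (rows, by class) in the 12 libraries (columns, groups parted by white lines), as log2(CPM + 1). The bright rows Col5a2, Col12a1, Col8a1, Col4a1 and Col4a2 in YMdIDR and YAP-M are dark or mid-range in NSC-YAP and SVZ, while Col25a1, Col11a2 and Col9a3 are brighter in SVZ than in YMdIDR and YAP-M.

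Differences were tested with the quasi-likelihood test of edgeR in 1 fit over 18329 genes. A gene was called when its Benjamini-Hochberg adjusted p was under 0.05 and its log2 fold change was at least 1 in size. Values after ± beside a fold change are standard errors. Of the 44 genes 43 passed the filter of at least 1 CPM in at least 2 libraries. Col6a6, a beaded chain, did not and stood at 0.0902 to 0.133 CPM in YMdIDR, 0.111 to 0.513 CPM in YAP-M, 0 and 0.0408 CPM in NSC-YAP and 0.277 to 0.495 CPM in SVZ.

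Against SVZ, most collagen genes were higher in both YMdIDR and YAP-M. In YMdIDR 24 of the 43 genes were called higher and 11 lower, against 26.9% higher and 29.6% lower among all genes tested. In YAP-M 26 were called higher and 10 lower, against 25.8% and 28.9%. The median log2 fold change of the 43 was 1.76 in YMdIDR and 2.05 in YAP-M, beside -0.01 and -0.04 over all genes. Both comparisons use the same SVZ libraries. Endothelial markers (8 genes) summed to 178 to 238 CPM in YMdIDR, 267 to 391 CPM in YAP-M and 149 to 209 CPM in SVZ, and fibroblast markers to 34.3 to 254, 81.4 to 313 and 35.9 to 54.3 CPM, with the fibroblast marker Dpt at 0 in YMdIDR. Of 6 tested fibroblast markers 1 was called higher and 2 lower in YMdIDR over SVZ, and 2 higher and 0 lower in YAP-M over SVZ. Dcn alone averaged 84.8 CPM in YMdIDR, 167 CPM in YAP-M and 13.7 CPM in SVZ. Ogn averaged 2.2, 28.6 and 8.85 CPM in these groups. Of the 8 endothelial markers 1 was called higher in YMdIDR over SVZ and 3 in YAP-M over SVZ, with 0 lower in either. Mural markers (8 genes) summed to 206 to 225 CPM in YMdIDR, 174 to 239 CPM in YAP-M and 249 to 314 CPM in SVZ. Over SVZ 3 of them were called higher and 3 lower in YMdIDR, and 2 higher and 1 lower in YAP-M. Macrophage markers summed to 1359 to 1523, 1163 to 1831 and 163 to 217 CPM, and all 6 were called higher in both YMdIDR and YAP-M. The part of these cell types in the collagen result was not tested. With library totals in place of TMM, 57.7% of all calls in YAP-M over SVZ were higher, against 47.1%.

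Among the 11 fibrillar genes, 8 were called higher in YMdIDR and 8 in YAP-M, with 2 and 3 called lower. Col5a2, a chain of the type V collagen that helps start fibrils, had 1205, 1631 and 1350.3 CPM in YMdIDR, 1298, 1390, 888 and 1375 CPM in YAP-M and 6.87, 8.6 and 9.4 CPM in SVZ. Its libraries formed 2 levels far apart, with no overlap. The log2 fold change over SVZ was 7.39 ± 0.25 in YMdIDR (edgeR adjusted p = 2.36e-09) and 7.22 ± 0.24 in YAP-M (adjusted p = 2.67e-09). Col11a1, the type XI chain of cartilage and of the eye, had 545, 611 and 298 CPM in YMdIDR and 732, 861, 335 and 936 CPM in YAP-M, against 12.5, 11.1 and 14.0 CPM in SVZ. It was higher by 5.27 ± 0.41 in YMdIDR (adjusted p = 5.5e-07) and by 5.84 ± 0.41 in YAP-M (adjusted p = 3.3e-07).

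Type I collagen, the main collagen of skin and bone, is made of the products of Col1a1 and Col1a2. Col1a1 had 401, 171 and 94.7 CPM in YMdIDR and 258, 207, 80.8 and 215 CPM in YAP-M, against 50.2, 48.0 and 40.1 CPM in SVZ. The libraries within YMdIDR and within YAP-M were spread widely, and replicate 3 was the lowest of each. The log2 fold change was 2.27 ± 0.50 in YMdIDR (edgeR adjusted p = 0.00144) and 2.05 ± 0.48 in YAP-M (adjusted p = 0.0021). Col1a2 was higher by 3.63 ± 0.61 in YMdIDR and by 3.79 ± 0.60 in YAP-M. Col3a1, the chain of the collagen of blood vessels and other elastic tissue, had 36.3, 34.6 and 24.2 CPM in YMdIDR and 83.1, 68.9, 22.2 and 76.7 CPM in YAP-M, against 9.96, 13.1 and 14.6 CPM in SVZ. It was higher by 1.34 ± 0.40 in YMdIDR (adjusted p = 0.00966) and by 2.32 ± 0.40 in YAP-M (adjusted p = 0.000235).

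Col2a1, the cartilage collagen, had 9.33, 11.6 and 4.64 CPM in YMdIDR, 39.9, 82.8, 23.4 and 111 CPM in YAP-M and 2.03, 1.8 and 1.76 CPM in SVZ. The 3 groups stood in separate ranges. Its rise over SVZ was 5.10 ± 0.58 in YAP-M (edgeR adjusted p = 1.09e-05) and 2.19 ± 0.55 in YMdIDR (adjusted p = 0.00357). Col5a1 and Col5a3, further type V chains, completed the 8, with log2 fold changes of 4.11 and 2.55 in YMdIDR and 3.83 and 2.96 in YAP-M. The fibrillar genes that fell were Col11a2 and Col24a1 in both, and Col27a1 in YAP-M. Col11a2, a second type XI chain, had 4.88, 3.93 and 3.72 CPM in YMdIDR and 5.79, 4.3, 5.21 and 10.4 CPM in YAP-M, against 39.8, 41.1 and 45.1 CPM in SVZ. It fell by 3.33 ± 0.29 in YMdIDR (adjusted p = 1.43e-06) and by 2.71 ± 0.26 in YAP-M (adjusted p = 2.55e-06). Col11a1 and Col11a2, partners in type XI collagen, were thus called in opposite directions. Col27a1 in YAP-M stood at 2.43 to 6.13 CPM, against 10.4 to 13.7 CPM in SVZ (log2 fold change -1.61 ± 0.36, adjusted p = 0.00157). In YMdIDR it was just under the fold limit (-0.96 ± 0.39) and was called at -1.55 (adjusted p = 0.00128) without YMdIDR replicate 1.

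**Figure D3:**
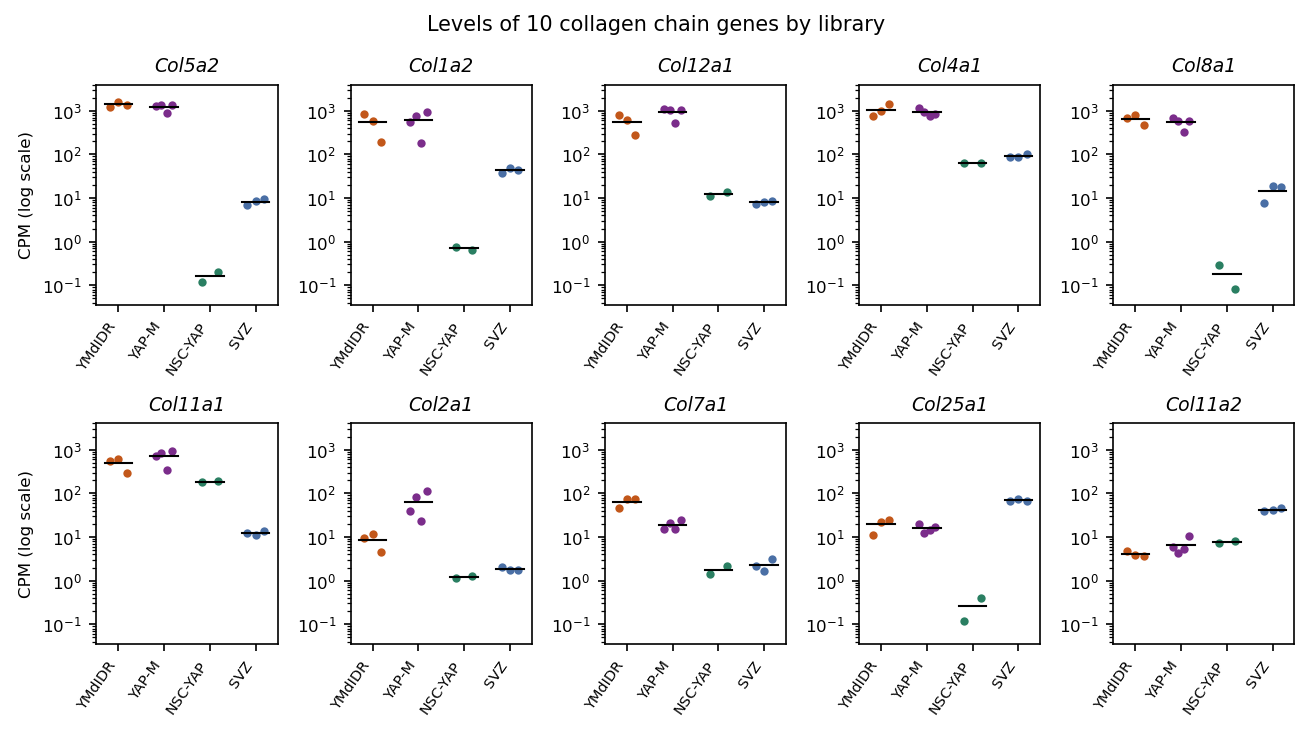
Level of 10 collagen chain genes in every library (points) with the group mean (line), in CPM on a log axis; groups from left to right are YMdIDR, YAP-M, NSC-YAP and SVZ. Col5a2 and Col8a1 lie above 300 CPM in YMdIDR and YAP-M and below 1 CPM in NSC-YAP, and Col7a1 and Col2a1 part YMdIDR from YAP-M.

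All 6 basement membrane genes were called higher in both YMdIDR and YAP-M over SVZ. Col4a1, a chain of the type IV collagen found in nearly every basement membrane, had 751, 985 and 1448 CPM in YMdIDR and 1137, 950.2, 757 and 837 CPM in YAP-M, against 86.8, 85.6 and 101 CPM in SVZ. No YMdIDR or YAP-M library reached down to the SVZ range. The log2 fold change was 3.54 ± 0.24 in YMdIDR (edgeR adjusted p = 1.91e-07) and 3.34 ± 0.23 in YAP-M (adjusted p = 2.7e-07). Its neighbour Col4a2 rose by 3.43 ± 0.25 and 3.20 ± 0.24. The chains of the kidney and lung form, Col4a3, Col4a4 and Col4a5, are mutated in Alport syndrome in humans. Col4a4 had 49.1, 54.6 and 54.8 CPM in YMdIDR and 76.1, 72.9, 48.6 and 40.7 CPM in YAP-M, against 2.03, 3.2 and 3.28 CPM in SVZ (4.22 ± 0.29, adjusted p = 2.46e-07, and 4.39 ± 0.29, adjusted p = 1.94e-07). Col4a5 had 186, 159.9 and 149 CPM in YMdIDR and 191, 179, 99.3 and 171 CPM in YAP-M, against 6.5, 8.96 and 9.06 CPM in SVZ (4.34 ± 0.25, adjusted p = 6.51e-08, and 4.29 ± 0.24, adjusted p = 7.58e-08). Col4a3 rose by 4.17 ± 0.40 and 4.27 ± 0.39.

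Col4a6, the sixth type IV chain, had 55.4, 49.7 and 48.8 CPM in YMdIDR and 62.5, 64.4, 2.26 and 29.0 CPM in YAP-M, against 1.29, 1.53 and 1.22 CPM in SVZ. The value of 2.26 CPM in YAP-M replicate 3 was close to the SVZ level, while Col4a5, which starts 1308 bases away, still had 99.3 CPM in that library. The fold change was 5.24 ± 0.93 in YMdIDR (edgeR adjusted p = 0.000305) and 4.87 ± 0.90 in YAP-M (adjusted p = 0.00042). Xist, the RNA of the inactive X chromosome, was at 1.03 CPM in YAP-M replicate 3 and 355 to 361 CPM in the other YAP-M libraries. In YMdIDR it was at 22.8 CPM in replicate 3, where Col4a6 had 48.8 CPM, and at 288 and 396 CPM in the others. Xist was at 0.245 and 0.327 CPM in NSC-YAP and at 0.461, 416 and 27.3 CPM in SVZ. Whether these values bear on Col4a6 or Col4a5, both on the X chromosome, was not tested.

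Of the 3 network genes, Col8a1, a chain of the lattice under vessel and corneal endothelium, had 673, 805 and 473 CPM in YMdIDR and 680, 579.6, 326 and 583 CPM in YAP-M, against 7.52, 18.6 and 17.5 CPM in SVZ. It rose by 5.48 ± 0.43 in YMdIDR (edgeR adjusted p = 5.56e-07) and by 5.22 ± 0.41 in YAP-M (adjusted p = 7.07e-07). Col8a2, its partner, had 56.6, 17.3 and 7.52 CPM in YMdIDR and 29.7, 10.7, 4.53 and 41.2 CPM in YAP-M, overlapped SVZ (5.72 to 12.6 CPM) and was not called in either. It was called without replicate 3 of YMdIDR (2.02, adjusted p = 0.0371) or of YAP-M (1.67, adjusted p = 0.0437). Col10a1, the collagen of growth plate cartilage, was called higher in both but lies wholly inside another gene, Nt5dc1, so its reads are uncertain. Without SVZ replicate 1 neither Col10a1 call held (2.65, adjusted p = 0.0591, in YMdIDR and 2.47, adjusted p = 0.0687, in YAP-M).

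Among the 5 beaded genes tested, 2 were called higher and 2 lower in YMdIDR, and 3 higher and 1 lower in YAP-M. Col6a1, a core chain of type VI collagen, had 136, 67.0 and 50.0 CPM in YMdIDR and 148, 99.5, 74.3 and 150.3 CPM in YAP-M, against 38.1, 43.9 and 47.0 CPM in SVZ. It was called in YAP-M (1.46 ± 0.34, edgeR adjusted p = 0.00191) and fell short of the fold limit in YMdIDR (0.97 ± 0.35, adjusted p = 0.0234). Without YMdIDR replicate 2 or 3, or SVZ replicate 3, the YMdIDR value was called, at 1.14, 1.24 and 1.05 (adjusted p = 0.0187, 0.00566 and 0.0423). Col6a2 and Col6a3, the other core chains, rose by 2.02 ± 0.41 and 2.06 ± 0.28 in YMdIDR and by 2.29 ± 0.40 and 2.05 ± 0.27 in YAP-M. Col6a4 fell in both, at 0.354 to 1.04 CPM in YMdIDR and 0.0371 to 0.405 CPM in YAP-M, against 1.43 to 3.28 CPM in SVZ. Col6a5 fell in YMdIDR (-1.93 ± 0.66) and overlapped SVZ in YAP-M. The YMdIDR call of Col6a4 was lost without SVZ replicate 3 or YMdIDR replicate 3 (adjusted p = 0.159 and 0.103), and that of Col6a5 without SVZ replicate 3 or YMdIDR replicate 2 (adjusted p = 0.0658 and 0.0705).

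The 9 FACIT genes were split. In YMdIDR 3 were called higher and 3 lower, and in YAP-M 4 higher and 3 lower. Col12a1, which coats fibrils in tendon and other dense tissue, had 793, 629 and 281 CPM in YMdIDR and 1083, 1050.1, 511 and 1037 CPM in YAP-M, against 7.33, 8.15 and 8.42 CPM in SVZ. Its log2 fold change was 6.15 ± 0.44 in YMdIDR (edgeR adjusted p = 2.87e-07) and 6.85 ± 0.45 in YAP-M (adjusted p = 1.81e-07). Col14a1 rose by 2.78 ± 0.39 in YMdIDR and 3.34 ± 0.39 in YAP-M, and Col19a1 by 2.49 in both. Col16a1 was called in YAP-M (1.31 ± 0.27) and not in YMdIDR (0.61 ± 0.28). The type IX chains, which decorate cartilage fibrils, went the other way. Col9a3 had 12.2, 4.51 and 2.83 CPM in YMdIDR and 9.54, 8.79, 7.65 and 14.4 CPM in YAP-M, against 50.2, 59.3 and 60.0 CPM in SVZ. It fell by 3.11 ± 0.44 in YMdIDR (adjusted p = 5.82e-05) and by 2.48 ± 0.39 in YAP-M (adjusted p = 0.000117). Col9a2 fell by 3.37 ± 0.51 in YMdIDR (adjusted p = 9.56e-05) and by 1.79 ± 0.42 in YAP-M (adjusted p = 0.00229). Col9a3 shares 234 bases with Tcfl5 on the other strand, a gene with 4384 counts beside its 6851, and the use of strand in counting is not given. Col9a1 fell in YMdIDR (-1.61 ± 0.55), a call lost without YMdIDR replicate 2 or 3 (adjusted p = 0.0605 and 0.0635). In YAP-M its value was 0.84 ± 0.47, and it was called higher at 1.16 (adjusted p = 0.0306) without YAP-M replicate 3. Col22a1 fell in YAP-M (-1.74 ± 0.55), and in YMdIDR it was not called (-0.42 ± 0.56) unless YMdIDR replicate 3 was left out (-1.55, adjusted p = 0.00731). Col20a1 was called in neither.

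None of the 4 transmembrane genes was called higher. Col25a1, a neuronal collagen found in amyloid plaques, had 11.3, 22.0 and 25.1 CPM in YMdIDR and 20.4, 12.1, 14.6 and 17.2 CPM in YAP-M, against 67.3, 73.9 and 67.6 CPM in SVZ. It fell by 1.84 ± 0.30 in YMdIDR (edgeR adjusted p = 0.000154) and by 2.11 ± 0.27 in YAP-M (adjusted p = 2.73e-05). Neuron markers summed to 412 to 453 CPM in YMdIDR, 246 to 582 CPM in YAP-M and 3871 to 4027 CPM in SVZ, and their part in this was not tested. Col17a1, the hemidesmosome collagen of skin, fell in both, to at most 0.342 CPM, against an SVZ level of 1.03 to 1.48 CPM. Col23a1 fell in YMdIDR (-1.14 ± 0.40, adjusted p = 0.0212), a call lost without YMdIDR replicate 2 or 3 (-0.95, adjusted p = 0.0787, and -0.85, adjusted p = 0.0732) or without SVZ replicate 3 (-1.04, adjusted p = 0.0628). Col13a1 was called in neither.

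Both multiplexins were called higher in YMdIDR, Col18a1 by 1.76 ± 0.20 and Col15a1 by 1.22 ± 0.24. Col18a1, the source of endostatin, rose by 2.00 ± 0.20 in YAP-M, where Col15a1 stayed under the fold limit (0.92 ± 0.23) unless replicate 2 or 3 of YAP-M was left out (1.05 and 1.21). Col18a1 shares 8825 bases with Slc19a1 on the other strand, a gene with 4456 counts beside its 6576, so its counts are uncertain. Col7a1, the anchoring fibril collagen under the epidermis, had 45.2, 74.5 and 74.4 CPM in YMdIDR and 15.5, 20.7, 14.9 and 24.5 CPM in YAP-M, against 2.12, 1.71 and 3.13 CPM in SVZ. It rose by 4.80 ± 0.32 in YMdIDR (edgeR adjusted p = 2e-07) and by 3.03 ± 0.30 in YAP-M (adjusted p = 3.47e-06). Col26a1 fell by 3.19 ± 0.49 in YMdIDR (adjusted p = 0.000158) and by 1.99 ± 0.41 in YAP-M (adjusted p = 0.00123), at 0.586 to 1.33 and 0.705 to 2.86 CPM against 7.06 to 9.23 CPM in SVZ. Col28a1 was called higher in YAP-M (1.86 ± 0.38) and not called in YMdIDR (-0.81 ± 0.44).

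**Figure D4:**
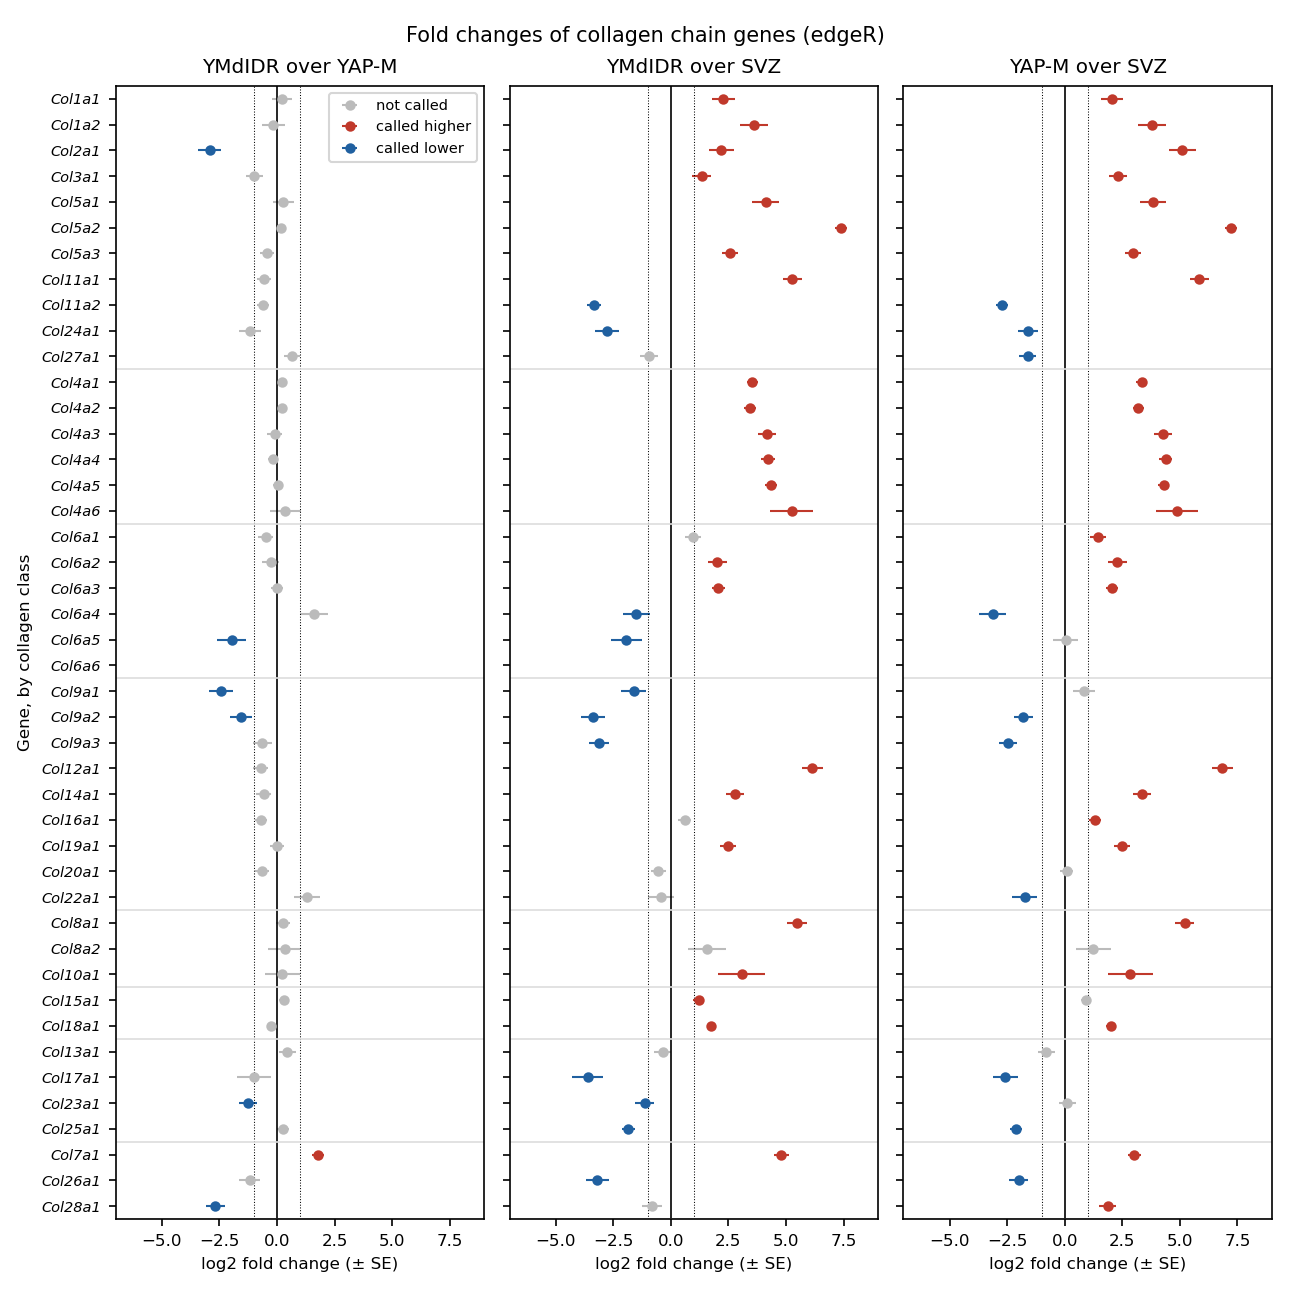
Log2 fold change with its standard error for 43 collagen chain genes (rows, by class; Col6a6 was not tested) in YMdIDR over YAP-M, YMdIDR over SVZ and YAP-M over SVZ, with dotted lines at -1 and 1. The left panel holds 1 gene called higher and 6 called lower, and the other panels 24 and 26 called higher, with all 6 basement membrane genes among them.

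YMdIDR set against YAP-M compares the construct labelled ΔIDR with YAP-M; the labels do not say whether the material was the same. Of the 43 collagen genes 1 was called higher (6.78% of all genes) and 6 lower (9.61%), so the shares were not far from the background, and 36 were not called. With library totals in place of TMM, 29.5% of all calls here were higher, against 41.4%. Col7a1 was the one that rose, with a log2 fold change of 1.77 ± 0.25 (edgeR adjusted p = 0.000351). Its YMdIDR libraries (45.2, 74.5 and 74.4 CPM) all lay above its YAP-M libraries (14.9 to 24.5 CPM). Col2a1 fell by 2.91 ± 0.50 (adjusted p = 0.00112), with 4.64 to 11.6 CPM in YMdIDR against 23.4 to 111 CPM in YAP-M. Of the 6 astrocyte markers 5 were called lower in YMdIDR, as were 3 of 8 endothelial, 2 of 8 mural and 1 of 6 tested fibroblast markers. Of 6 neuron markers 2 were called higher and 1 lower, and likewise of 6 neural progenitor markers. Choroid plexus markers summed to 53.3 to 702 CPM in YMdIDR, 31.0 to 314 CPM in YAP-M and 980.4 to 2430.3 CPM in SVZ. The part of these cells in the collagen values was not tested.

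The other falls were in genes of low level. Col28a1, a minor chain related to type VI collagen, had 0.471, 0.451 and 0.398 CPM in YMdIDR and 4.46, 3.45, 1.79 and 1.6 CPM in YAP-M (-2.67 ± 0.40, edgeR adjusted p = 0.000512). Col9a1 had 1.28, 0.541 and 0.31 CPM in YMdIDR and 2.95, 3.75, 1.88 and 7.1 CPM in YAP-M (-2.45 ± 0.52, adjusted p = 0.00361). In both genes the groups did not overlap. Col6a5, Col9a2 and Col23a1 were called lower by 1.97, 1.58 and 1.26, and their groups overlapped. The calls of Col7a1, Col2a1, Col28a1 and Col9a1 held without each library in turn. Those of Col9a2 and Col23a1 were lost without YMdIDR replicate 2 (adjusted p = 0.0598 and 0.0683) or 3 (adjusted p = 0.07 and 0.069). That of Col6a5 was lost without either of these or without YAP-M replicate 1 or 4, with adjusted p from 0.0539 to 0.0867. Col6a4 (1.62 ± 0.61, adjusted p = 0.0505) was called higher without YMdIDR replicate 3 (1.96, adjusted p = 0.0305) or YAP-M replicate 1 (1.99, adjusted p = 0.0397).

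The most abundant chains were not called between YMdIDR and YAP-M. Col5a2 differed by 0.17 ± 0.17, Col8a1 by 0.26 ± 0.32 and Col12a1 by -0.70 ± 0.33, which was called at -1.01 (adjusted p = 0.0352) without YMdIDR replicate 1. Col4a1 differed by 0.21 ± 0.20 (edgeR adjusted p = 0.427), a sign that turned to -0.08 without YMdIDR replicate 3. Col1a1 differed by 0.22 ± 0.44 (adjusted p = 0.711), and its sign turned to -0.52 without YMdIDR replicate 1 and to -0.06 without YAP-M replicate 3. Col6a1 differed by -0.49 ± 0.32 (adjusted p = 0.245), and without YMdIDR replicate 1 it was called at -1.01 (adjusted p = 0.0112). Col3a1 fell just short of both limits, at -0.99 ± 0.37 (adjusted p = 0.0517). Its lowest YAP-M library was replicate 3 (22.2 CPM, within the YMdIDR range), and without that library the value was -1.29 (adjusted p = 0.00102). With all libraries it was also called under median-ratio scaling (-1.03, adjusted p = 0.0433), library totals (-1.11, adjusted p = 0.0302), no filter (-1.06, adjusted p = 0.0397) and DESeq2 (-1.03, adjusted p = 0.0179). Leaving out YMdIDR replicate 1 raised the count of lower calls to 12, and leaving out YMdIDR replicate 3 brought it to 3.

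Against NSC-YAP, YMdIDR and YAP-M again held more collagen RNA. In YMdIDR 28 of 43 genes were called higher and 5 lower, against 27.4% and 20.4% of all genes. In YAP-M 31 were called higher and 5 lower, against 28.9% and 21.6%. The median log2 fold change was 2.59 in YMdIDR and 3.09 in YAP-M, beside 0.13 and 0.10 over all genes. With 2 genes at 0 counts in NSC-YAP put at their bounds, the medians were 2.58 and 3.09. In NSC-YAP the endothelial markers summed to 22.3 to 23.4 CPM with Cldn5 at 0, and the macrophage markers to 41.3 to 43.3 CPM. Most of the macrophage sum was Cd68, as Csf1r, Ptprc, Itgam and Aif1 averaged at most 0.225 CPM there and Lyz2 2.39 CPM. In NSC-YAP over SVZ 5 of 6 macrophage markers were called lower and 1 higher. Over NSC-YAP all 6 were called higher in both YMdIDR and YAP-M. Of the 8 mural markers 6 were called higher and 2 lower in YMdIDR, and likewise in YAP-M. Their sum ran the other way, at 206 to 225 CPM in YMdIDR and 174 to 239 CPM in YAP-M against 403 to 426 CPM in NSC-YAP, where Notch3 alone averaged 210.4 CPM, Pdgfrb stood at 0.163 CPM and Abcc9 at 0. Of 6 tested fibroblast markers 4 were called higher and 1 lower in YMdIDR, and 5 higher and 1 lower in YAP-M. Their NSC-YAP sum of 115 to 116 CPM was nearly all Fbln1 (114 CPM), the marker that was lower in YMdIDR and YAP-M, with Lum at 0. The part of these cell types was not tested.

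Several chains that led in YMdIDR and YAP-M were under 1 CPM in NSC-YAP. Col5a2 had 0.122 and 0.204 CPM there, and YMdIDR was higher by 13.02 ± 0.40 (edgeR adjusted p = 2.57e-09) and YAP-M by 12.84 ± 0.40 (adjusted p = 2.43e-09). Col8a1 had 0.285 and 0.0817 CPM, with differences of 11.75 ± 0.73 in YMdIDR (adjusted p = 1.52e-07) and 11.49 ± 0.73 in YAP-M (adjusted p = 1.45e-07). Col1a2 had 0.775 and 0.653 CPM, with 9.56 ± 1.01 in YMdIDR (adjusted p = 8.18e-06) and 9.72 ± 1.01 in YAP-M (adjusted p = 6.36e-06). No library of YMdIDR or YAP-M came near these levels. Col1a1 had 5.1 and 4.66 CPM (5.51 ± 0.71 in YMdIDR, adjusted p = 3.69e-05, and 5.29 ± 0.69 in YAP-M, adjusted p = 3.85e-05). Col3a1 had 1.06 and 0.613 CPM (5.24 ± 0.61, adjusted p = 1.67e-05, and 6.22 ± 0.62, adjusted p = 4.57e-06). Col4a1, at 65.2 and 65.0 CPM, was less far off (4.03 ± 0.29, adjusted p = 4.27e-07, and 3.82 ± 0.28, adjusted p = 4.6e-07).

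The largest differences also included Col4a4 (6.80 ± 0.42 in YMdIDR, edgeR adjusted p = 1.47e-07, and 6.97 ± 0.42 in YAP-M, adjusted p = 1.05e-07). Among them were Col8a2 (6.65 ± 1.36, adjusted p = 0.00114, and 6.32 ± 1.34, adjusted p = 0.00129) and Col4a3 (6.16 ± 0.54, adjusted p = 2.04e-06, and 6.26 ± 0.54, adjusted p = 1.53e-06). Col12a1 was higher by 5.49 ± 0.51 (adjusted p = 2.86e-06) and 6.18 ± 0.52 (adjusted p = 1.24e-06). Col25a1, with 0.122 and 0.408 CPM in NSC-YAP, was higher by 6.17 ± 0.51 in YMdIDR (adjusted p = 1.21e-06) and 5.90 ± 0.50 in YAP-M (adjusted p = 1.33e-06). Col26a1 and Col6a5 had no count in NSC-YAP, where 3 counts over the group served as the floor. Col26a1 was at least 14.6-fold higher in YMdIDR and at least 33.0-fold higher in YAP-M, and Col6a5 at least 5.99-fold and at least 24.1-fold. Col10a1 had 2 counts and Col17a1 had 1 count in NSC-YAP. The ratio of Col10a1 was 32.7 in YMdIDR (95% interval for counting error 8.8 to 274) and 28.9 in YAP-M (7.82 to 241). That of Col17a1 was 5.04 (0.647 to 227) and 10.3 (1.67 to 426).

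Not every chain was lower in NSC-YAP. Col16a1, a FACIT chain, had 77.3 and 81.3 CPM in NSC-YAP, above the 34.1, 15.5 and 15.8 CPM of YMdIDR (-1.86 ± 0.31, edgeR adjusted p = 0.000257) and the 40.3, 28.9, 29.7 and 43.3 CPM of YAP-M (-1.16 ± 0.28, adjusted p = 0.00339). Col22a1, a chain of tissue junctions such as that of muscle and tendon, had 7.46 and 7.68 CPM in NSC-YAP. It fell by 2.90 ± 0.59 in YMdIDR (adjusted p = 0.00105) and by 4.21 ± 0.57 in YAP-M (adjusted p = 4.72e-05). Col9a3 fell by 2.42 ± 0.46 in YMdIDR (adjusted p = 0.000702) and by 1.78 ± 0.42 in YAP-M (adjusted p = 0.00246). Col9a2 fell by 2.70 ± 0.54 in YMdIDR (adjusted p = 0.0009) and by 1.12 ± 0.47 in YAP-M (adjusted p = 0.0485), and the YAP-M call was lost without YAP-M replicate 1 or 2 or either NSC-YAP library, with adjusted p from 0.101 to 0.148. The fifth call was Col9a1 in YMdIDR and Col27a1 in YAP-M (-1.64 ± 0.39, adjusted p = 0.00281). Col6a1 was not called in YMdIDR (0.51 ± 0.39, adjusted p = 0.26, and -0.01 without YMdIDR replicate 1). In YAP-M it stood just under the fold limit (1.00 ± 0.38, adjusted p = 0.034), and it was called without YAP-M replicate 2 or 3 (1.09 and 1.20, adjusted p = 0.0321 and 0.0114). Col11a1, at 183 and 189 CPM in NSC-YAP, rose by 1.38 ± 0.40 in YMdIDR, a call lost without either NSC-YAP library (adjusted p = 0.0584 and 0.0528), and by 1.94 ± 0.40 in YAP-M. Col5a1, Col6a2, Col4a6, Col10a1 and Col13a1 were also called in YMdIDR and lost at the removal of at least 1 library, as were Col4a6, Col10a1, Col13a1 and Col17a1 in YAP-M. Calls were gained for Col5a1 in YAP-M without YAP-M replicate 3 (1.52, adjusted p = 0.00432, against 1.17 with it) and, without YMdIDR replicate 3, for Col24a1 and Col23a1 in YMdIDR (2.02 and 1.19, adjusted p = 0.0225 and 0.0366).

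NSC-YAP set against SVZ compares cultured progenitors with the tissue labelled wild-type. Here 6 of the 43 genes were called higher and 22 lower, against 17.5% and 27.6% of all genes, and the median log2 fold change was -1.50, beside -0.10 over all genes. The genes that rose were Col11a1 (183 and 189 CPM in NSC-YAP against 11.1 to 14.0 CPM in SVZ, 3.89 ± 0.40, edgeR adjusted p = 7.55e-06) and Col4a5 (106 and 103 CPM against 6.5 to 9.06 CPM, 3.67 ± 0.25, adjusted p = 4.49e-07). With them rose Col5a1 (2.66 ± 0.59, adjusted p = 0.00207), Col16a1 (2.47 ± 0.31, adjusted p = 3.73e-05) and Col22a1 (2.47 ± 0.58, adjusted p = 0.00277). Col4a6 was the last of the 6 (2.76 ± 0.94, adjusted p = 0.0221), and its call was lost without NSC-YAP replicate 1 or 2 or SVZ replicate 1 or 3, with adjusted p from 0.0575 to 0.0597. The lower calls of Col14a1, Col19a1 and Col6a4 were also lost without 1 library or another.

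All 4 transmembrane genes fell in NSC-YAP against SVZ, led by Col25a1 (-8.01 ± 0.53, edgeR adjusted p = 3.19e-07). Col8a1 fell by 6.27 ± 0.67 (adjusted p = 1e-05), Col1a2 by 5.94 ± 0.90 (adjusted p = 0.000136), Col5a2 by 5.62 ± 0.36 (adjusted p = 2.77e-07) and Col8a2 by 5.08 ± 1.33 (adjusted p = 0.00567). Col15a1, a basement membrane multiplexin, fell by 4.27 ± 0.37 (adjusted p = 1.94e-06). Col3a1 fell by 3.90 ± 0.59 (adjusted p = 0.000131) and Col1a1 by 3.24 ± 0.63 (adjusted p = 0.000883). Col26a1, at 0 counts in NSC-YAP, was at least 133-fold lower there, and Col6a5 at least 22.9-fold lower. Col4a1 (-0.48 ± 0.25, adjusted p = 0.103) and Col6a1 (0.46 ± 0.38, adjusted p = 0.309) were not called.

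Several pairs of chains that share a molecule did not keep 1 ratio across the groups. The ratios of Col4a1 to Col4a2 and of Col4a3 to Col4a4 lay close together in YMdIDR, YAP-M and SVZ. The CPM ratio of Col1a1 to Col1a2 was 0.293 to 0.481 in YMdIDR, 0.228 to 0.464 in YAP-M, 6.58 and 7.13 in NSC-YAP and 0.899 to 1.31 in SVZ. Col1a2 had only 35 counts in NSC-YAP, so the ratio there is coarse. That of Col5a1 to Col5a2 was 0.0376 to 0.135 in YMdIDR, 0.0274 to 0.1 in YAP-M, 322 and 191 in NSC-YAP (8 counts of Col5a2) and 0.641 to 0.906 in SVZ. YMdIDR and YAP-M thus lay below SVZ and NSC-YAP above it in both ratios, with no overlap.

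For the type IV and type VI pairs the ratios were as follows. Col4a1 to Col4a2 was 1.38 to 1.48 in YMdIDR, 1.33 to 1.59 in YAP-M, 3.03 and 2.7 in NSC-YAP and 1.31 to 1.33 in SVZ. Col4a3 to Col4a4 was 0.913 to 1.52 in YMdIDR, 0.795 to 1.36 in YAP-M, 2.5 and 1.4 in NSC-YAP (23 counts of Col4a4) and 0.886 to 1.3 in SVZ. Col4a5 to Col4a6 was 3.06 to 3.36 in YMdIDR, 11.6 and 11.1 in NSC-YAP and 5.04 to 7.4 in SVZ. In YAP-M it was 3.06, 2.79, 43.9 and 5.89, with replicate 3 standing alone at 43.9. Col6a1 to Col6a2 was 1.54 to 1.67 in YMdIDR, 1.69 to 2.25 in YAP-M, 3.76 and 3.61 in NSC-YAP and 2.91 to 3.6 in SVZ. Col8a1 to Col8a2 was 11.9 to 62.9 in YMdIDR, 14.1 to 72.0 in YAP-M, 0.4 to 0.875 in NSC-YAP (13 counts of Col8a2) and 1.31 to 1.95 in SVZ. These ratios are descriptions, and no test was run on them.

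Genes that make, fold and cross-link collagen were read from lists of enzymes and partners. Among all genes tested, 26.9% were called higher and 29.6% lower in YMdIDR over SVZ, and 25.8% and 28.9% in YAP-M over SVZ. The shares were 6.78% and 9.61% in YMdIDR over YAP-M, and 17.5% and 27.6% in NSC-YAP over SVZ. Of 15 genes of prolyl and lysyl hydroxylation, which stabilise the helix and prepare it for cross-links, 10 were called higher and 1 lower in YMdIDR over SVZ, and 10 higher and 0 lower in YAP-M over SVZ. In NSC-YAP over SVZ 12 rose, although the collagen sum there was near that of SVZ. Plod2, a lysyl hydroxylase, had 143 to 165 CPM in YMdIDR, 175 to 277 CPM in YAP-M, 171 and 164 CPM in NSC-YAP and 13.1 to 14.1 CPM in SVZ. P4hb, a subunit of prolyl 4-hydroxylase, had 517 to 678, 478 to 581, 695 and 658, and 155 to 159 CPM in the same 4 groups.

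Serpinh1 encodes HSP47, the chaperone that is specific to collagen. It had 840.1, 872 and 773 CPM in YMdIDR, 456, 378, 497 and 446 CPM in YAP-M, 0.775 and 0.694 CPM in NSC-YAP and 28.5, 34.9 and 34.2 CPM in SVZ. The 4 groups held separate ranges, and in NSC-YAP it fell by 5.46 ± 0.19 against SVZ (edgeR adjusted p = 7.33e-09). Over SVZ it rose by 4.67 ± 0.14 in YMdIDR (adjusted p = 1.31e-09) and by 3.77 ± 0.13 in YAP-M (adjusted p = 2.84e-09). Of the 9 genes of folding and export 3 were called higher and 1 lower in YMdIDR and likewise in YAP-M over SVZ, and 2 higher and 0 lower in YMdIDR over YAP-M (Fkbp10, 1.17 ± 0.18, and Creb3l1, 1.48 ± 0.33). Lox, the lysyl oxidase that starts cross-linking, had 984, 453 and 152 CPM in YMdIDR, 1085, 747, 476 and 758 CPM in YAP-M, 0.571 and 0.49 CPM in NSC-YAP and 2.12, 2.48 and 3.77 CPM in SVZ. All 5 cross-linking genes were called higher in YMdIDR over SVZ and 4 of 5 in YAP-M over SVZ, and Loxl4 fell and Loxl3 rose in YMdIDR over YAP-M (-2.09 ± 0.36 and 1.37 ± 0.25).

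**Figure D5:**
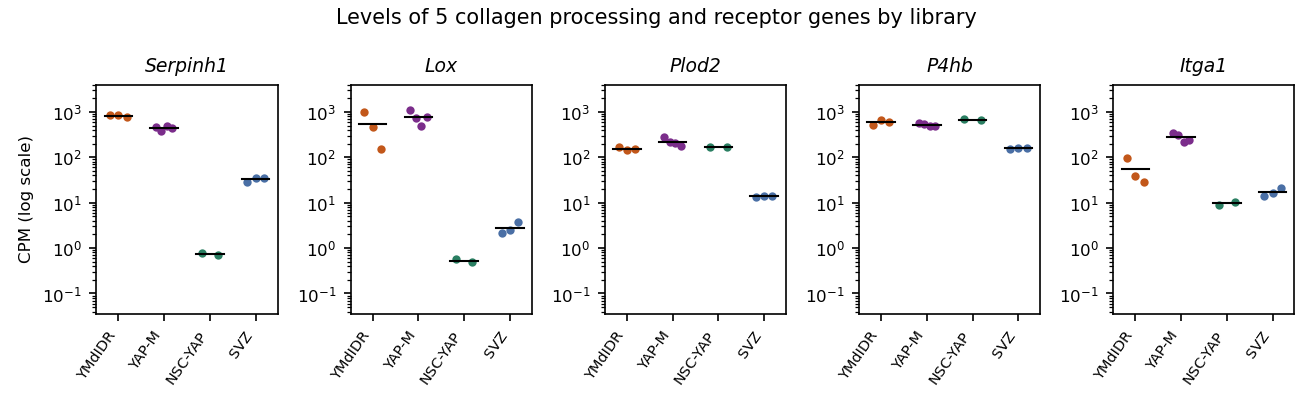
Level of 5 genes that process or bind collagen in every library (points) with the group mean (line), in CPM on a log axis; groups from left to right are YMdIDR, YAP-M, NSC-YAP and SVZ. Serpinh1 and Lox lie below 1 CPM in NSC-YAP and above 150 CPM in YMdIDR and YAP-M, while P4hb and Plod2 are lower in SVZ than in the other 3 groups.

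Of 7 tested genes of propeptide processing, the trimming that lets fibrils form, 5 were called higher and 1 lower in YMdIDR over SVZ, 2 higher and 1 lower in YAP-M over SVZ, and 1 in each direction in YMdIDR over YAP-M. Pcolce2, an enhancer of that trimming, rose in the last comparison (2.31 ± 0.20, edgeR adjusted p = 3.16e-05) and Adamts3, a procollagen protease, fell (-2.13 ± 0.33, adjusted p = 0.000652). Of 11 tested collagen receptors 8 rose in YMdIDR and 7 in YAP-M over SVZ, with 1 and 2 that fell. Itga1, a collagen-binding integrin subunit, had 97.9, 38.8 and 28.8 CPM in YMdIDR and 336, 308, 222 and 242 CPM in YAP-M, with no overlap (-2.33 ± 0.37, adjusted p = 0.000728). Of 8 small leucine-rich proteoglycans, which bind fibrils and set their width, 3 rose and 1 fell in YMdIDR and 4 rose and 0 fell in YAP-M over SVZ. Bgn had 803, 952 and 712 CPM in YMdIDR, 365, 361, 315 and 248 CPM in YAP-M, 2.12 and 1.27 CPM in NSC-YAP and 15.5, 19.0 and 17.0 CPM in SVZ. Each list count is a description, to be read beside the percentages called among all genes, given with the first list. The higher calls of folding and export over SVZ were not far from those percentages. Nor were those of propeptide processing in YAP-M over SVZ.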

How the data were processed

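RNA-seq libraries of 12 mouse samples were analysed; the kit was Illumina TruSeq RNA on total RNA, per the labels' protocols. The authors deposited 1 table per library with whole-number read counts per gene and no normalization. TopHat2 and build mm10 are named, per the submitters' processing notes; how reads were counted, by strand or with several matches, is not given in the sources used here. So counts of overlapping genes are uncertain (28 of the 44 collagen genes overlap another gene, 6 of them one with at least 1 count for every 10 of their own). Groups and replicate numbers came from the titles. Rows of 1 symbol were summed (453 rows, none of them a collagen gene), which left 52850 symbols.

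Counts were tested with edgeR 4.0.16 in R 4.3.3 (glmQLFit and glmQLFTest, TMM factors 0.826 to 1.13), with all 12 libraries in 1 fit and 1 coefficient per group. Genes needed 1 CPM in 2 libraries. A level of 3 counts is 0.111 to 0.147 CPM, and intervals and floors cover counting error only. The fit was tested on simulated data. No replicate pair agreed within sampling noise (chi-square per gene 4.17 to 84.2). The members and lists were chosen with earlier results of these data known. Every collagen gene is given by level; Col1a1, Col3a1, Col4a1 and Col6a1 in every comparison, and up to 8 rises and 8 falls among called genes of at least 5 CPM whose groups did not overlap, are given with fold change, error and adjusted p. Up to 4 called genes of a list are named; Bgn and P4hb levels, and other called members, were added after their values were seen. No protein sequences were used here. Figures were drawn with matplotlib 3.10.9. Alternatives were other scaling (median ratio, library totals), no filter, 5 CPM, a replicate block, the adjusted p alone, DESeq2 1.42.0, 2 groups alone, and each library left out in turn.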

Additional observations from a re-analysis of the deposited data

Results flagged for a closer look

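Col12a1 in YAP-M replicate 3 stood apart from the other libraries of its group: 511 CPM, against 1083, 1050.1 and 1037 CPM in replicates 1, 2 and 4. The gap to the nearest library took up 0.921 of the group's range. It was the 1 value past the limit of Dixon's test for 4 libraries among 43 collagen genes tested in YAP-M, and chance passes about 1 group in 20.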

How the results depend on the processing

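The call counts of the 43 tested collagen genes stayed within 1.5 times the reported ones except as follows. In YMdIDR over YAP-M the higher calls were 2 under DESeq2, 1 to 2 with 1 library left out and 2 without replicate 3 of both YAP-M and YMdIDR (a setting added after seeing the data). The lower calls there were 3 with a minimum of 5 CPM, 3 with the 2 groups alone and 3 to 12 with 1 library left out. With 5 CPM, lower calls in YMdIDR over SVZ were 6, and with library totals those in YAP-M over NSC-YAP were 3. Fewer genes are tested at 5 CPM; the other causes were not tested. Signs turned for Col4a1 in YMdIDR over YAP-M (-0.08 to 0.40 with 1 library left out, -0.20 without both replicates 3), for Col1a1 there (-0.52 to 0.59 with 1 library left out) and for Col6a1 in YMdIDR over NSC-YAP (-0.01 to 0.78 with 1 library left out, 0.79 without both replicates 3); none of these was called with all libraries. Of 90 named values 79 kept direction and call under every alternative. Col6a1 was called under each other scaling, with no filter and by DESeq2 in YMdIDR over SVZ (1.01 to 1.20) and in YAP-M over NSC-YAP (1.09 to 1.19). The call of Col9a2 in YAP-M over NSC-YAP was lost under the same settings (-0.92 to -1.04), and that of Col23a1 in YMdIDR over SVZ and of Col16a1 in YAP-M over NSC-YAP with library totals (-0.92 and -0.96). Library totals moved the median log2 fold change of all genes to 0.30 in YAP-M over SVZ, against -0.04, and moved the share of higher among all calls to 29.5%, against 41.4%, in YMdIDR over YAP-M and to 57.7%, against 47.1%, in YAP-M over SVZ. Same-numbered libraries correlated at -0.06 to 0.351 in their deviations from the group means; YMdIDR 2 with YAP-M 2 was the highest, most pairs were under 0.1, and the numbers were not taken as pairs. With the replicate block YMdIDR over YAP-M had 1 higher and 4 lower calls, against 1 and 6, and Col4a6 in NSC-YAP over SVZ was lost (2.37, adjusted p = 0.0696). Genes under 1 CPM rest on few counts at this depth.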
